A study of Mus musculus with 12 samples.

Results

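The interleukin receptor genes encode the chains through which cells sense interleukins, together with the soluble antagonist of interleukin-1. Members were the autosomal protein-coding mouse genes whose RefSeq symbol is Il, a number and r, which gave 36 of 20665 genes. Chromatin accessibility around them was read from ATAC-seq peak lists, 1 per library, of bone marrow-derived macrophages (BMDMs) from 12 libraries. ATAC-seq uses a transposase to cut and tag open DNA, and a peak is a stretch in which a caller found more cuts than in its background. The cells were Baf60a KO or WT. Baf60a, the product of Smarcd1, belongs to the SWI/SNF complexes, which move nucleosomes. Each genotype was measured without treatment and after 48 h with oxidised LDL (oxLDL) at 50 µg/ml.

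The first cohort had 1 library each of WT untreated, KO untreated, WT oxLDL and KO oxLDL cells, prepared by the Omni-ATAC protocol, and its labels give the genotype only as WT or KO, with no word on ApoE. The ApoE KO cohort had 2 libraries in each of the same 4 groups, from cryopreserved cells and a Nextera kit. There KO means Baf60a f/f, Lyz2 Cre+, ApoE KO and WT means Baf60a f/f, Lyz2 Cre-, ApoE KO, so that WT cells also carried the floxed allele and lacked ApoE. Lyz2 Cre deletes in cells of the myeloid lineage. Cohort, ApoE background, cell storage, library kit and peak caller version cannot be told apart. The labels do not name separate mice or cultures for the replicates, so the spread behind each p-value may be technical. In bulk cells, fewer cells with an open region and less opening per cell cannot be told apart. First-cohort lists held 80394 to 138132 autosomal peaks and ApoE KO lists held 24397 to 44524. Within the ApoE KO cohort the lists were longer in KO (33267 to 44524) than in WT (24397 to 39303), with overlap, and longer untreated (29064 to 44524) than with oxLDL (24397 to 35589).

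The label of the cells was checked against marker genes. A boundary peak is defined as a peak placed within 1 kb of either end of a gene. Over all genes, 39.4% had one in 12 of 12 libraries, and it was called in 62.3% of gene-library pairs of the first cohort and 48.1% of the ApoE KO cohort. Of 9 macrophage markers, 6 (Adgre1, Cd68, Mertk, Cd14, Lyz2 and Spi1) had a boundary peak in 12 of 12 libraries and 0 lacked one throughout, with shares of 100% and 91.7% of pairs. Of 10 T and NK cell markers, 2 (Cd3d and Klrb1c) had one in 12 of 12 and 5 (Cd8a, Lck, Zap70, Ncr1 and Gata3) in 0, with shares of 32.5% and 23.8%. The 6 B cell markers had none in 12 of 12 and were called in 50.0% of gene-library pairs for the first cohort and 2.08% for the other. For 7 mast cell and basophil markers these shares were 28.6% and 3.57%, with Mcpt4, Cpa3, Tpsb2, Ms4a2 and Mcpt8 at 0. For 7 neutrophil markers they were 42.9% and 26.8%, with S100a8 in 12 of 12 libraries and Ly6g, Mpo, Elane and Ltf at 0. For 5 dendritic cell markers they were 80.0% and 32.5%, with Xcr1 in 12 of 12. The part of other cells in the results below was not tested.

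Interleukin receptors are assembled from a chain specific to the cytokine and, in most families, a chain shared between cytokines. The IL-1 and IL-17 families signal through adaptors and kinases to NF-kB, and most other families signal through JAK kinases and STAT factors. In macrophages, interleukin-4 through Il4ra, interleukin-10 through Il10ra and interleukin-6 through Il6ra are textbook regulators of activation. An open promoter does not by itself give the level of the RNA or of the receptor, neither of which was analysed here.

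RefSeq start windows (assembly GRCm38.p6, from 250 bases before to 50 after a transcription start) were found for 29 of the 36 members, 37 windows in all. None was found for Il17ra, Il12rb1, Il27ra, Il10ra, Il22ra2, Il2rb and Il10rb. In full lists 10 of the 37 windows lay under a peak in 12 of 12 libraries, against 27.6% of the 31396 autosomal windows. In 0 of 12 libraries lay 14 of the 37, against 51.6% of all windows. The 7 windows below are shown because the results turn on them: 3 were open in 12 of 12 libraries (Il6ra, Il12rb2 and the internal start of Il1r1), 1 in all 4 first-cohort and 4 of 8 ApoE KO libraries (an internal start of Il1rn), 1 in the 4 first-cohort libraries alone (Il18rap), and 2 in none (Il23r and Il5ra). Capitals mark the ETS core GGAAGT on either strand, the core bound by PU.1 and other ETS factors.
Il6ra, chr3:89913147-89913446, minus strand: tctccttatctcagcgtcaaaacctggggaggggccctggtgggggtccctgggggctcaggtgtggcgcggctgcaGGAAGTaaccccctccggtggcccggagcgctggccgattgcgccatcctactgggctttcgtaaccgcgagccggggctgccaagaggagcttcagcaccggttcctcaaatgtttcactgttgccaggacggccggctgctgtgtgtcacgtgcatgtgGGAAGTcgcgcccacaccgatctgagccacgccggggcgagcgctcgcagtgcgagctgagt
Il12rb2, chr6:67376139-67376438, minus strand: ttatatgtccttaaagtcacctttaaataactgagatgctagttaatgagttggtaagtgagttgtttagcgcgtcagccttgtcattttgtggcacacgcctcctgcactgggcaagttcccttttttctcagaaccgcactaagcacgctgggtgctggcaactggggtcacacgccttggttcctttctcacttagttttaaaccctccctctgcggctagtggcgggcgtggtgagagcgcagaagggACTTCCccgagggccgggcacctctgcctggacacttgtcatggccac
Il1r1, chr1:40224830-40225129, plus strand: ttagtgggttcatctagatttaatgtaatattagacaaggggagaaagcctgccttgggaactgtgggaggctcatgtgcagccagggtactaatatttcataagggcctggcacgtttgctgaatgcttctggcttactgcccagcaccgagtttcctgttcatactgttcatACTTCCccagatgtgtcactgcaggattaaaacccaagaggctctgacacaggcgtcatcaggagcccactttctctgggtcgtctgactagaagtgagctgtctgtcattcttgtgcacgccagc
Il1rn, chr2:24345041-24345340, plus strand: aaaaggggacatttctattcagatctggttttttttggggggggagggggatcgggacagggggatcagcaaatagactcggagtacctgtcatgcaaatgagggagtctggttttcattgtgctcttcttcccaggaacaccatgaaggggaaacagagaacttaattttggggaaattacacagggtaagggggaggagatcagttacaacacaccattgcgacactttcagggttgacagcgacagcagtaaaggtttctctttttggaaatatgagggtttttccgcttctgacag
Il18rap, chr1:40515112-40515411, plus strand: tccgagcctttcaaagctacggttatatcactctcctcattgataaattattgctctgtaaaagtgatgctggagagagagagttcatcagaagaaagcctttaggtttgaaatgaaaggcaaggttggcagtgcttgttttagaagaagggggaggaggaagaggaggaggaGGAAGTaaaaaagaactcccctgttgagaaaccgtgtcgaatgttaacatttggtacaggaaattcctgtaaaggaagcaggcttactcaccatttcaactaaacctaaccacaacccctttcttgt
Il23r, chr6:67491806-67492105, minus strand: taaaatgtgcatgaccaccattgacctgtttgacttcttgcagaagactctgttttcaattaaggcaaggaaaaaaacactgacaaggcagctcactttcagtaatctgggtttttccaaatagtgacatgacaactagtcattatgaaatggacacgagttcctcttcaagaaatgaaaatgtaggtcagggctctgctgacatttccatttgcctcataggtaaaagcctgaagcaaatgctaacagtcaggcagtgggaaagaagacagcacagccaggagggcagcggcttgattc
Il5ra, chr6:106748988-106749287, minus strand: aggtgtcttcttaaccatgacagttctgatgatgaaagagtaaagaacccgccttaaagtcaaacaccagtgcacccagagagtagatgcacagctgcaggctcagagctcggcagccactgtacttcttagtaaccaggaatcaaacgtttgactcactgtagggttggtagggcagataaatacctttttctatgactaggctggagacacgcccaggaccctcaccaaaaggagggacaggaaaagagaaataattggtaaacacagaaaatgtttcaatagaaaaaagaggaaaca
The ETS core was in 6 of the 10 member windows called in all libraries and in 2 of the 14 called in none. Among all windows it was in 23.9%, in 31.4% of those called in 12 of 12 and in 19.7% of those called in 0 of 12. Il6ra held 2 matches. The longer PU.1 core GAGGAAGT, which contains the ETS core, was in 3.25% of all windows and in 1 member window, that of Il18rap. The AP-1 motif TGANTCA was in 6 of 37 member windows and 7.84% of all, and the STAT motif TTCNNNGAA in 5 of 37 and 8.35%. The C/EBP motif TTGCNNAA was in 7 of 37 and 10.9%. The STAT6 motif was in 7 of 37 member windows and 6.98% of all windows, and the NF-kB motif in 5 of 37 and 1.66%. A partial motif of the interferon-stimulated response element was in 1 of 37 and 3.46%. Some of these windows overlap each other, since Il18r1 and Il1rn have starts close together, so the counts are not of independent sequences. CpG dinucleotides also differed: the median was 17.0 per window in the 10 member windows called in all libraries and 3.5 in the 14 called in none, against 24.0 and 3.0 among all windows so called. A match is a description of the letters and not of binding.

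Across the family, 11 of 36 members had a boundary peak in 12 of 12 libraries, where 39.4% of all 20665 genes had one. These were Il9r, Il1rap, Il12rb2, Il3ra, Il17rc, Il11ra1, Il6ra, Il4ra, Il10rb, Il17rd and Il15ra. In 0 of 12 libraries were 7 members, Il1r1, Il1rn, Il11ra2, Il22ra1, Il23r, Il5ra and Il17re, against 31.8% of all genes. A further 3, Il1r2, Il18rap and Il20ra, were called at the boundary in all 4 first-cohort libraries and in 0 of 8 ApoE KO libraries, a pattern of 4.11% of all genes. Per library, 23 to 29 of 36 members had a boundary peak in the first cohort (63.9% to 80.6%, all genes 59.2% to 66.1%) and 14 to 18 in the ApoE KO cohort (38.9% to 50.0%, all genes 44.6% to 52.1%). The members' share was thus above that of all genes in each first-cohort library and below it in 7 of 8 ApoE KO libraries. The exception was KO oxLDL replicate 1. The strength of a peak is given below as the percentile of the authors' caller score within its own list, where 100 is the top. Scores of lists of different length are not on a common scale. A percentile in a full list also depends on the length of that list. With lists cut to equal length within a cohort, Il1r2 fell from 63.2 to 36.7 in first-cohort KO untreated cells. Il10ra fell from 48.0 to 5.12 in KO untreated replicate 1 of the ApoE KO cohort. The values by receptor family below are from full lists unless equal length is stated, so differences between libraries or cohorts may reflect list length.

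**Figure D1:**
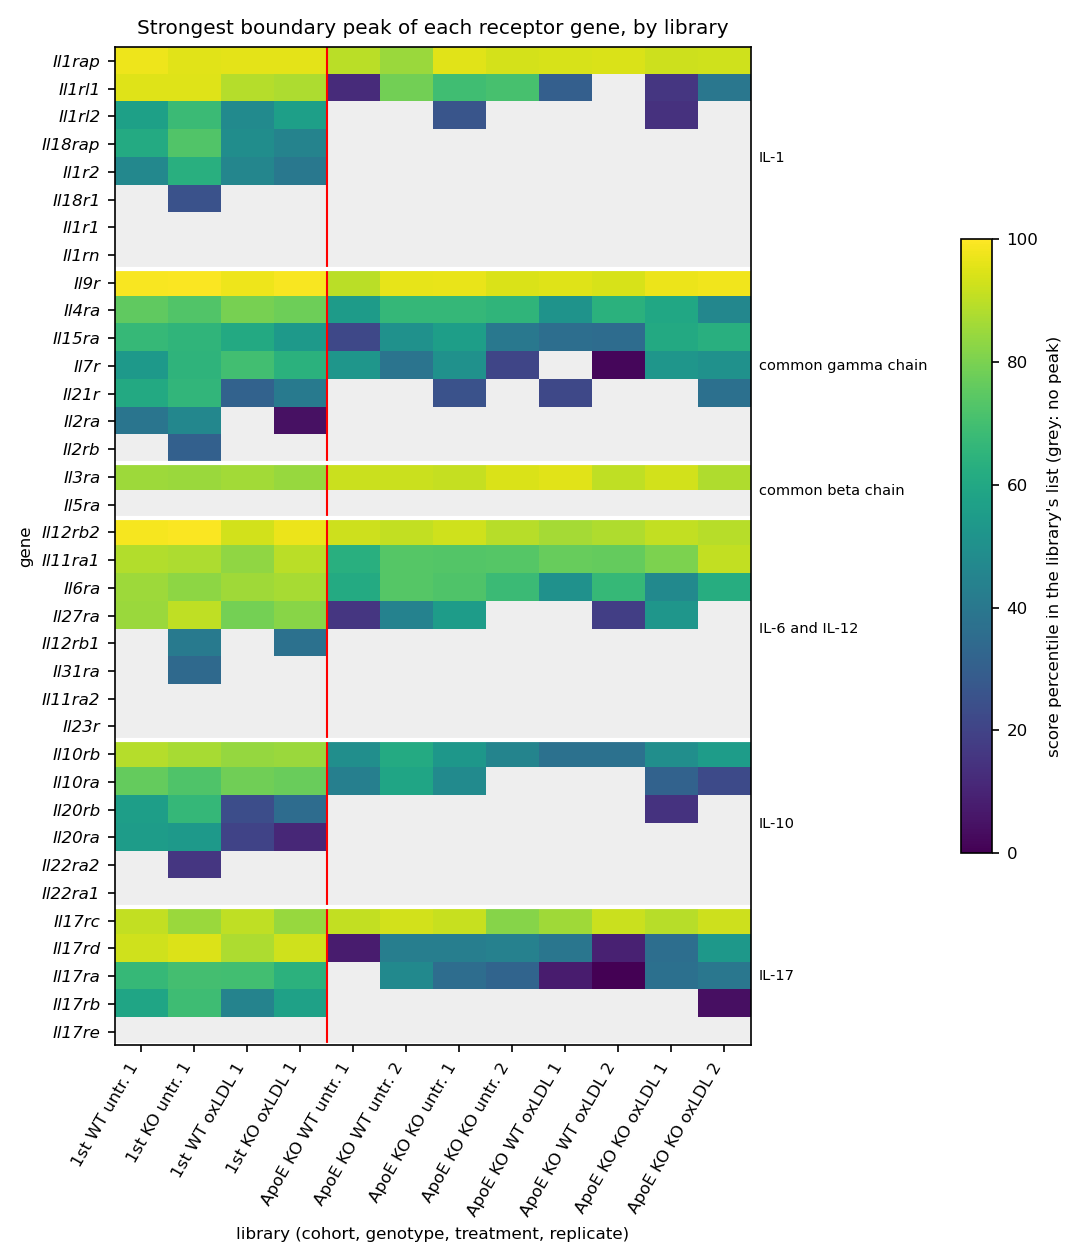
Score percentile of the strongest boundary peak (colour, within the full list of each library) for the 36 genes in rows, grouped by receptor family, and the 12 libraries in columns, with the first cohort left of the red line. Grey marks no peak. Il9r, Il1rap, Il12rb2, Il3ra and Il17rc are bright in all 12 libraries, Il1r2, Il18rap and Il20ra are coloured in the 4 first-cohort libraries alone, and 7 genes are grey throughout.

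In the IL-1 family (8 members) 1 was open at a boundary in all libraries and 2 in none. Il1rap, the accessory chain shared by the receptors for interleukin-1 and interleukin-33, had percentiles of 97.4 (WT untreated), 95.6 (KO untreated), 95.9 (WT oxLDL) and 95.8 (KO oxLDL) in the first cohort. ApoE KO values were 89.7 and 85.0 in WT untreated, 95.7 and 93.7 in KO untreated, 93.8 and 94.2 in WT oxLDL, and 92.3 and 92.8 in KO oxLDL libraries. Il1rap was therefore among the strongest peaks of every list. Il1rl1, the interleukin-33 receptor ST2, was at 87.5 to 95.1 in the 4 first-cohort libraries. Its ApoE KO values were 12.2 and 78.8 in WT untreated, 69.3 and 71.0 in KO untreated, 30.3 and 0 in WT oxLDL, and 15.7 and 39.5 in KO oxLDL. That peak (chr1:40404217-40405096) lies at the lower end of the gene, 24913 bp from the nearest listed start, and both listed Il1rl1 windows were called in 0 of 12 libraries.

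Il1r1, the signalling receptor for interleukin-1, and Il1rn, the gene of its secreted antagonist, had no boundary peak, yet both held open starts inside the gene. The region over an internal Il1r1 start (chr1:40224527-40225369, 2468 bp from the gene's lower end) was called in 12 of 12 libraries. Its percentile was 94.1, 95.8, 80.5 and 81.0 in the first cohort and 13.9 to 59.2 in the ApoE KO cohort. In the first cohort the 2 untreated libraries, which had the longer full lists, were above the 2 oxLDL libraries. In the ApoE KO cohort treated and untreated values overlapped. Further regions called in 12 of 12 lay at chr1:40229767-40230980 and chr1:40294508-40295629 within Il1r1. At Il1rn the window at the outer start was called in 0 of 12 libraries. The internal starts (region chr2:24345038-24345490) were called at percentiles of 67.4 to 73.8 in the first cohort. Among ApoE KO libraries that region was called in 3 of 4 KO libraries (36.7, 21.8 and 42.1) and in 1 of 4 WT libraries (23.6). These calls are from full lists, which were longer in KO with overlap. Values from lists of equal length are not given for this region. A second region inside Il1rn, chr2:24341221-24341997, was called in 12 of 12 libraries, at 84.9 to 91.2 in the first cohort and 39.4 to 80.4 in the ApoE KO cohort.

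Il1r2, the decoy receptor for interleukin-1, and Il18rap, the accessory chain of the interleukin-18 receptor, were open at their boundaries in the first cohort alone. Il1r2 had percentiles of 46.8, 63.2, 46.0 and 40.1 there, in the order WT untreated, KO untreated, WT oxLDL and KO oxLDL. Il18rap had 61.3, 72.8, 49 and 44.8. For both genes KO untreated was the highest and KO oxLDL the lowest of 4 single libraries, and the KO untreated list was also the longest. With lists of equal length the highest Il1r2 value was instead that of WT oxLDL (46.0). The listed Il1r2 start window, 1401 bp from the gene's lower end, was called in 3 first-cohort libraries and 1 ApoE KO library. Il1rl2, the receptor for interleukin-36, was at 47.8 to 68.3 in the first cohort and was called in 2 of 8 ApoE KO libraries, both KO (26.5 and 14.1). With lists of equal length Il1rl2 was called in 0 of 8. Il18r1, the ligand-binding chain of the interleukin-18 receptor, was called in the first-cohort KO untreated library alone (25). The 6 genes from Il1r2 to Il18rap are neighbours on chromosome 1. Regions within 20 kb were shared by Il1r1 and Il1rl2, by Il1rl1 and Il18r1, and by Il18r1 and Il18rap, so these genes are not independent of each other.

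**Figure D2:**
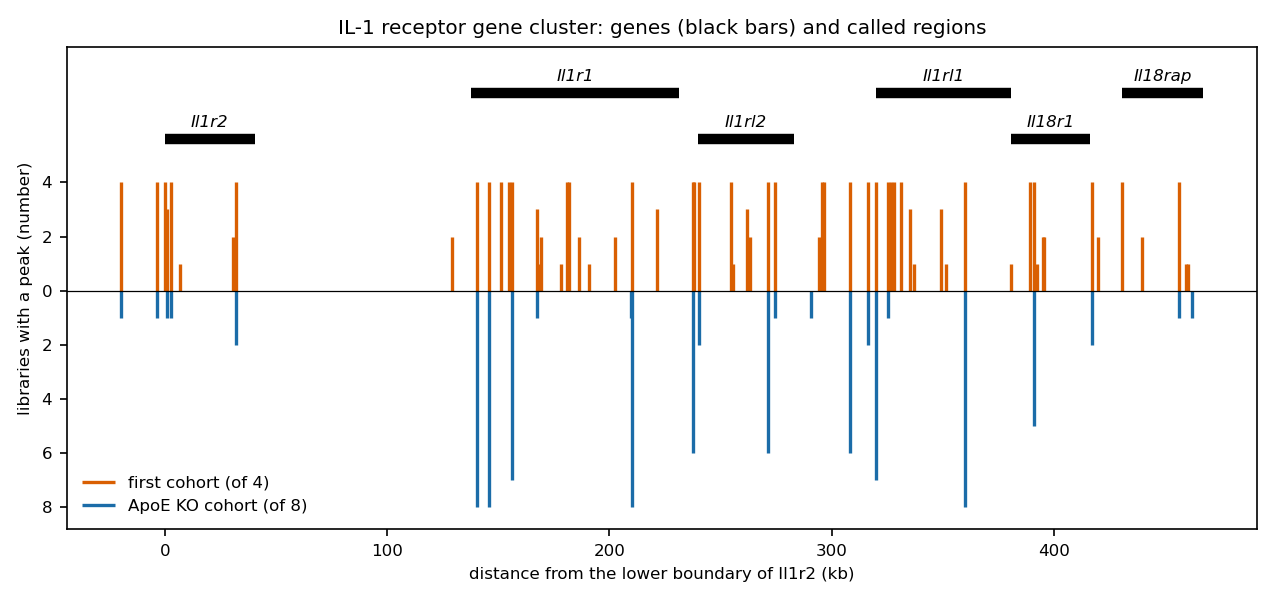
Number of libraries (vertical axis) with a peak in each region within 20 kb of the 6 IL-1 and IL-18 receptor genes of chromosome 1, first cohort upward (of 4) and ApoE KO cohort downward (of 8), against distance from the lower boundary of Il1r2 in kb. Regions inside Il1r1 reach 4 and 8 libraries, while those around Il1r2 reach 4 of 4 in the first cohort and at most 2 of 8 in the ApoE KO cohort.

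In the common gamma chain family (7 members) 3 were open in all libraries and 0 in none. Il4ra, the chain that binds interleukin-4 and takes part in the interleukin-13 receptor, had percentiles of 75.6, 73.0, 79.5 and 78.0 in the first cohort and 46.3 to 66.7 in the ApoE KO cohort. Il15ra, which presents interleukin-15 to neighbouring cells, had 66.8, 65.5, 60.8 and 54.2 in the first cohort. Il15ra ranged in ApoE KO libraries from 21.8 (WT untreated replicate 1) to 63.1 (KO oxLDL replicate 2). Il9r, the interleukin-9 receptor, had the highest mean percentile of any member, with 97.3 to 99.3 in the first cohort and 89.7 to 97.9 in the ApoE KO cohort. Its boundary peak (chr11:32204861-32206154) lies 93 bp from the start of Snrnp25, and the listed Il9r start window was called in 0 of 12 libraries. Il7r, the interleukin-7 receptor, was called over its own start in 11 of 12 libraries, at 54.2 to 69.9 in the first cohort. Its ApoE KO values were 52.7 and 38.5, 50.5 and 20.9, 0 and 1.65, and 52.7 and 50.5 in WT untreated, KO untreated, WT oxLDL and KO oxLDL, so the WT oxLDL pair, from the 2 shortest lists, was the lowest. With lists of equal length that pair (0 and 1.65) overlapped WT untreated replicate 2 (0.939) and KO untreated replicate 2 (0). Il21r was called in all 4 first-cohort libraries (31.3 to 65.8) and in 3 of 8 ApoE KO libraries (25.1, 21.6 and 36.9). Il2ra, the alpha chain of the interleukin-2 receptor, was called in 3 of 4 first-cohort libraries and 0 of 8 ApoE KO libraries. Il2rb, the beta chain, was called in the first-cohort KO untreated library alone (30.8).

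In the common beta chain family Il3ra and Il5ra were at opposite ends. Il3ra, the interleukin-3 receptor alpha chain, had percentiles of 84.7 to 86.3 in the first cohort and 88.2 to 95.4 in the ApoE KO cohort, and its start window held 35 CpG. Il5ra, the interleukin-5 receptor of eosinophils and B cells, had no boundary peak. A region 1406 bp beyond the Il5ra start (chr6:106750176-106750709) was called in 4 of 4 and 2 of 8 libraries and was the sole region within 20 kb.

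Among the 8 IL-6 and IL-12 family members 3 were open in all libraries and 2 in none. Il12rb2, the signalling chain of the interleukin-12 receptor, is best known from T and NK cells. It was called over its own start (chr6:67375610-67376684) at 98.5, 99.3, 93.3 and 97.2 in the first cohort and at 86.7 to 92.7 in the ApoE KO cohort. The values of Il12rb2 were thus in the upper part of every list and did not separate the genotypes. Il6ra, the interleukin-6 receptor, had 83.0 to 86.8 in the first cohort and 47.3 to 73.5 in the ApoE KO cohort. There the 4 untreated libraries (61.0, 73.5, 72.4 and 68.0) overlapped the 4 with oxLDL (50.5, 66.8, 47.3 and 62.4). Il11ra1, the interleukin-11 receptor, had 83.4 to 89.8 in the first cohort and 62.9 to 91.0 in the ApoE KO cohort. Its copy Il11ra2 had no peak within 20 kb in any library, as had 14.1% of all genes. Of the 21 genes within 500 kb of Il11ra2, 9 likewise had none, and how reads that map to more than 1 place were handled is not given in the sources used here. Il27ra, the interleukin-27 receptor, was at 79.0 to 90.6 in the first cohort and was called in 5 of 8 ApoE KO libraries. Il12rb1, the chain shared by the interleukin-12 and interleukin-23 receptors, was called in 2 first-cohort libraries, both KO (41.0 and 37.3), and in no other. With lists of equal length the KO oxLDL call alone was left (26.8). Il31ra was called in the first-cohort KO untreated library alone (34.1). Il23r, which pairs with Il12rb1 and marks Th17 cells, was at 0.

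In the IL-10 family (6 members) Il10rb, the chain shared by interleukin-10 and related cytokines, was the one gene open in all libraries. It was at 84.3 to 88.9 in the first cohort and 37.3 to 61.1 in the ApoE KO cohort, from lists of different length. Il10ra, the interleukin-10 binding chain, was at 72.3 to 78.3 in the first cohort. Its ApoE KO values were 43.1 and 58.9 in WT untreated, 48.0 and 0 in KO untreated, 0 and 0 in WT oxLDL, and 31.5 and 22.6 in KO oxLDL libraries. Il20ra, a receptor chain for interleukins of the IL-20 subgroup, was called in the first cohort alone, at 55.4 and 53.6 untreated and 20.2 and 11.1 with oxLDL. Its untreated values were the higher pair, from 1 library per group, and with lists of equal length they were 41.0 and 20.3 against 20.2 and 0. Il20rb had 56.0, 66.7, 23.6 and 35.4 in the first cohort and 1 call of 8 (14.6) in the ApoE KO cohort, at the end away from its start. The Il20rb start window was called in 0 of 12 libraries. Il22ra1, the interleukin-22 receptor of epithelia, was at 0, and Il22ra2, a soluble interleukin-22 binding protein, was called in the first-cohort KO untreated library alone (16.0).

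In the IL-17 family (5 members) Il17rc and Il17rd were open in all libraries. Il17rd, which also antagonises growth factor signalling, was at 87.6 to 94.9 in the first cohort and 7.74 to 53.4 in the ApoE KO cohort. Il17rc, which pairs with Il17ra, was at 84.7 to 90.8 and 81.7 to 93.2. The boundary peak of Il17rc (chr6:113482374-113484049) lies 144 bp from the start of Creld1, and the listed Il17rc start was called in 0 of 12 libraries. Il17ra, the chain common to the family, was at 64.4 to 70.1 in the first cohort and was called in 7 of 8 ApoE KO libraries, at 0.277 to 47.5. Il17rb, the interleukin-25 receptor, was at 44.7 to 69.0 in the first cohort and called once (3.91) in the ApoE KO cohort. Its region covers the Il17rb start window and is centred 45 bp from the start of Chdh. Il17re, the receptor for interleukin-17C of epithelia, was at 0 at its boundaries. For Il9r and Il17rc the boundary call therefore lies by another gene's start, and of the 11 members open in all libraries 8 had their own listed start window under a peak in 12 of 12.

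Genotype was compared across both cohorts with limma on lists of equal length, in which each library was represented by its top-scoring peaks, 80394 for the first cohort and 24397 for the other. The question was whether loss of Baf60a changes accessibility around these genes. For the number of peaks within 20 kb, 32 of 36 members passed the filter of a mean of at least 1 peak, and Il5ra, Il2rb, Il22ra2 and Il11ra2 did not. Of these, 0 were called at an adjusted p under 0.05 (limma, Benjamini-Hochberg over 15295 genes, of which 0, or 0%, were called). At an unadjusted p under 0.05 there were 2 of 32 members and 1056 genes (6.9%). The members' median difference was -0.01 on the log2(peaks + 0.5) scale and that of all tested genes -0.03. Il12rb1 had the smallest p: 12, 10 and 5, 6, 5, 3 peaks in WT against 9, 10 and 4, 3, 3, 3 in KO libraries, first cohort before ApoE KO cohort. The KO and WT counts overlapped, and the difference was -0.37 ± 0.13 (SE, adjusted p = 0.705, limma). Il10rb was at 9, 8 and 3, 4, 3, 4 in WT and 7, 7 and 3, 3, 3, 3 in KO (-0.21 ± 0.08, adjusted p = 0.705). Il10ra had 14, 12 and 4, 3, 3, 2 in WT and 12, 14 and 3, 2, 1, 1 in KO (-0.47 ± 0.22, adjusted p = 0.719). In the other direction Il6ra had 12, 12 and 2, 4, 4, 3 peaks in WT and 12, 13 and 4, 5, 5, 4 in KO (0.32 ± 0.17, adjusted p = 0.723). Il15ra (0.10 ± 0.05) and Il1r1 (0.12 ± 0.11) were next. None of these differences passed the test.

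For the boundary score percentile, 25 of 36 members passed the filter of a boundary peak in at least 1 library of the equal-length lists. The genotype test called 0 of them (limma, 12887 genes tested, 0, or 0%, called), with 3 of 25 members and 1539 genes (11.9%) at an unadjusted p under 0.05. Il10ra had means of 21.8 in KO and 35.5 in WT, a difference of -13.7 ± 5.74 points (SE, adjusted p = 0.402, limma). For Il10rb the means were 43.8 and 52.2 (-8.33 ± 3.05, adjusted p = 0.366), and for Il17rc 81.6 and 88.8 (-7.19 ± 2.4, adjusted p = 0.34). Il12rb1 (4.47 ± 3.9), Il9r (1.68 ± 1.53) and Il17rb (1.12 ± 1.18) were on the side of higher values in KO. Il12rb1 passed the filter through the first-cohort KO oxLDL library alone (26.8), so the sign of its difference was fixed by that library. Over all tested genes the median genotype difference at the boundary was -1.98 points and 29.2% were above 0, against 48.0% of members. For peaks within 20 kb 37.9% of all tested genes were above 0. At the boundary the lower side in KO was thus that of most genes. Both chains of the interleukin-10 receptor were on that side by both measures in lists of equal length, without passing the test. In full lists their differences were 0.12 (Il10ra) and 0.02 (Il10rb) for peaks within 20 kb and -0.856 and 2.7 points at the boundary, so 3 of these 4 turned sign.

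With oxLDL, the number of peaks within 20 kb changed for 0 of 32 members at an adjusted p under 0.05 and for 1 of 15295 genes (0.00654%, limma). At an unadjusted p under 0.05 there were 2 members and 827 genes (5.41%). Il4ra had the smallest p. It had 18, 17 and 5, 5, 6, 5 peaks in untreated libraries and 15, 17 and 4, 4, 4, 4 with oxLDL, first cohort before ApoE KO cohort. Every untreated ApoE KO library was above every oxLDL library of that cohort, and in the first cohort WT went from 18 to 15 while KO had 17 in both. The fitted difference was -0.28 ± 0.06 (SE, adjusted p = 0.676, limma), so it did not pass the test. The share of all tested genes whose ApoE KO counts separate by treatment as those of Il4ra did is not given here. The ApoE KO counts of Il4ra overlapped in full lists, with 6, 7, 9 and 6 untreated and 6, 4, 8 and 7 with oxLDL. First-cohort counts in full lists were 21 and 24 untreated and 15 and 18 with oxLDL. Il10ra (-0.47 ± 0.22, adjusted p = 0.741) and Il18rap (-0.12 ± 0.06, adjusted p = 0.741) were next on the lower side. On the higher side Il1rn had 6, 7 and 2, 3, 2, 2 peaks untreated and 6, 8 and 3, 3, 3, 4 with oxLDL (0.33 ± 0.12, adjusted p = 0.741), and in full lists the difference was -0.00803. Il11ra1 (0.16 ± 0.08) and Il17rc (0.09 ± 0.07) followed.

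By boundary percentile the oxLDL test called 0 of 25 members (limma, 0, or 0%, of 12887 genes called), with 2 members and 618 genes (4.8%) at an unadjusted p under 0.05. Il11ra1 had 84.5, 78.5 and 55.8, 57.8, 51, 63.9 untreated and 83.4, 88.1 and 73.5, 76.3, 71.2, 87.5 with oxLDL. The Il11ra1 values of the ApoE KO cohort did not overlap between treatments, and the share of all tested genes separated in that way is not given here. The difference was 14.7 ± 4.12 points (SE, adjusted p = 0.786, limma). Il15ra had 56.0, 40.7 and 6.79, 20.5, 19.5, 18.4 untreated and 60.8, 46.6 and 27.9, 35.2, 43.0, 48.7 with oxLDL. Again the ApoE KO values did not overlap, and each first-cohort oxLDL library was above its untreated counterpart (16.7 ± 5.51, adjusted p = 0.786). In full lists this order did not hold for Il15ra: the first cohort went from 66.8 to 60.8 in WT and from 65.5 to 54.2 in KO. The ApoE KO values of Il15ra then overlapped, with 21.8, 50.7, 55.9 and 40.2 untreated and 36.2, 35.2, 60.9 and 63.1 with oxLDL. Il17rc was at 3.75 ± 2.4. On the lower side the smallest limma p-values were those of Il1rl1 (-24.0 ± 11.5), Il20rb (-6.05 ± 3.11) and Il2ra (-4.45 ± 2.74), each with an adjusted p of 0.786. Il2ra passed the filter through the first-cohort untreated libraries alone (19.2 in WT and 7.43 in KO), so the sign of its difference was fixed by them. Il1rl1 had 93.4, 91.7 and 0, 65.8, 44.0, 60.5 untreated and 88.8, 85.5 and 21.2, 0, 0, 15.9 with oxLDL, so within the ApoE KO cohort the treatments overlapped through 1 untreated library at 0.

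**Figure D3:**
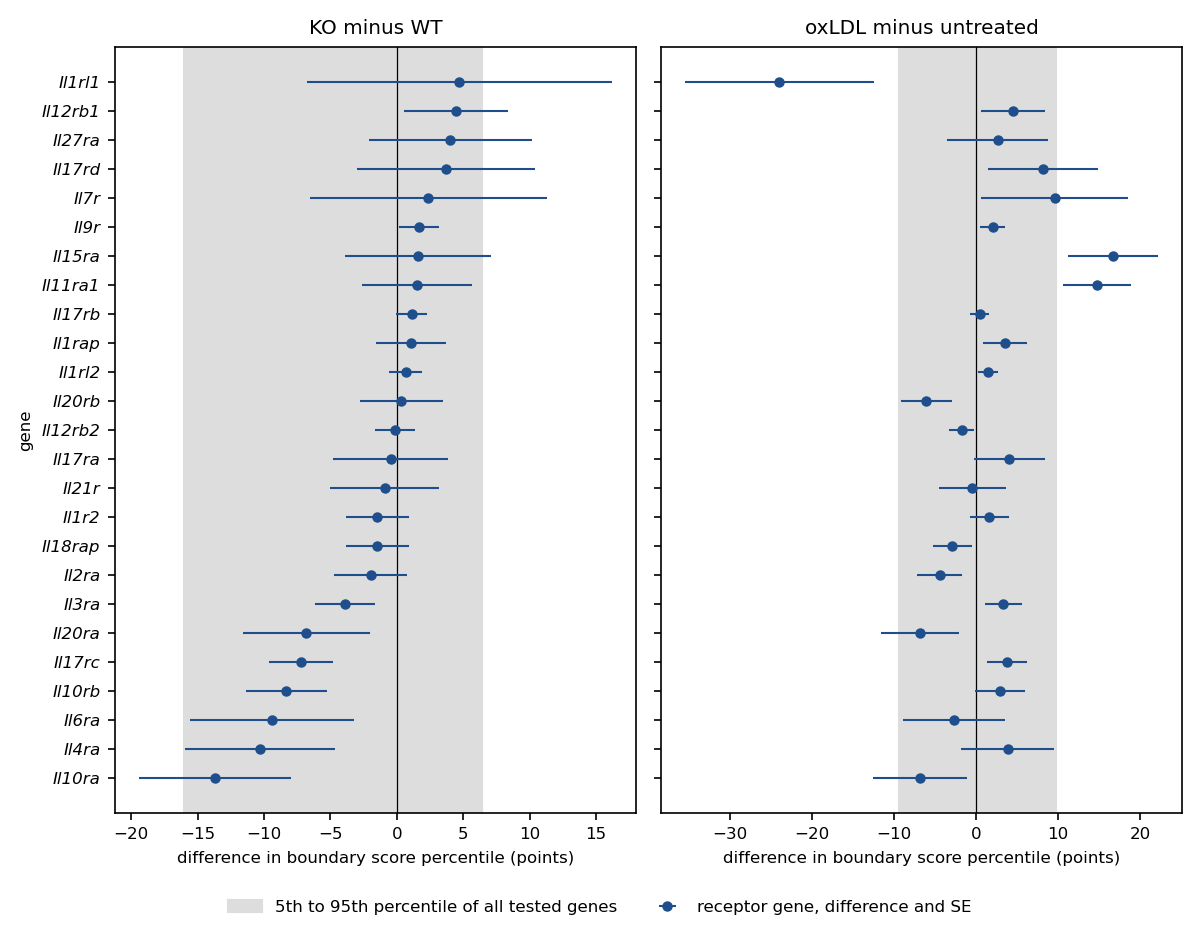
Fitted differences in boundary score percentile (points, horizontal axis) for the 25 tested receptor genes, KO minus WT on the left and oxLDL minus untreated on the right, with standard errors as bars and the range from the 5th to the 95th percentile of all tested genes in grey. Il11ra1 (14.7) and Il15ra (16.7) lie to the right and Il1rl1 (-24.0) to the left of the grey range for oxLDL, and none of the points passed the test.

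The genotype-by-treatment interaction for peaks within 20 kb asks whether oxLDL acts differently in KO and WT cells. It was called for 0 of 32 members and for 0, or 0%, of 15295 genes (limma), with 1 member and 513 genes (3.35%) at an unadjusted p under 0.05. Il1rl1 had the smallest p: in the ApoE KO cohort WT had 1 and 2 peaks untreated and 3 and 4 with oxLDL, while KO had 2 and 3 and then 1 and 2. In the first cohort WT went from 13 to 11 and KO from 11 to 9. The interaction was -1.11 ± 0.47 (SE, adjusted p = 0.878, limma). Il1rap (-0.56 ± 0.25) and Il20ra (-0.77 ± 0.48) had the same sign, and Il11ra1 (0.36 ± 0.16), Il7r (0.49 ± 0.33) and Il1rn (0.34 ± 0.25) the opposite one.

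Regions were formed by merging the peaks of all libraries where they overlapped. Within 20 kb of a member were 357 regions, 13.7% of them called in 12 of 12 libraries, against 12% of all 144562 autosomal regions. Of the members, 24 of 36 had at least 1 region called in 12 of 12 within 20 kb, among them 3 of the 7 without a boundary peak. The share of all genes with such a region is not given here, so this count cannot be set beside a background. In all 4 first-cohort and 0 of 8 ApoE KO libraries were 16.0% of member regions and 15.7% of all regions. Il6ra had the most regions, 25, of which 2 were called in 12 of 12. Il4ra had 22 with 3, Il1r1 21 with 3 and Il21r 19 with 2. Il17ra had 14 regions, of which 5 were called in 12 of 12, the most of any member. Regions were shared by Il4ra and Il21r, by Il2ra and Il15ra, and by Il17re and Il17rc, beside the pairs of chromosome 1, and 26 of the 357 regions were counted for more than 1 member.

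**Figure D4:**
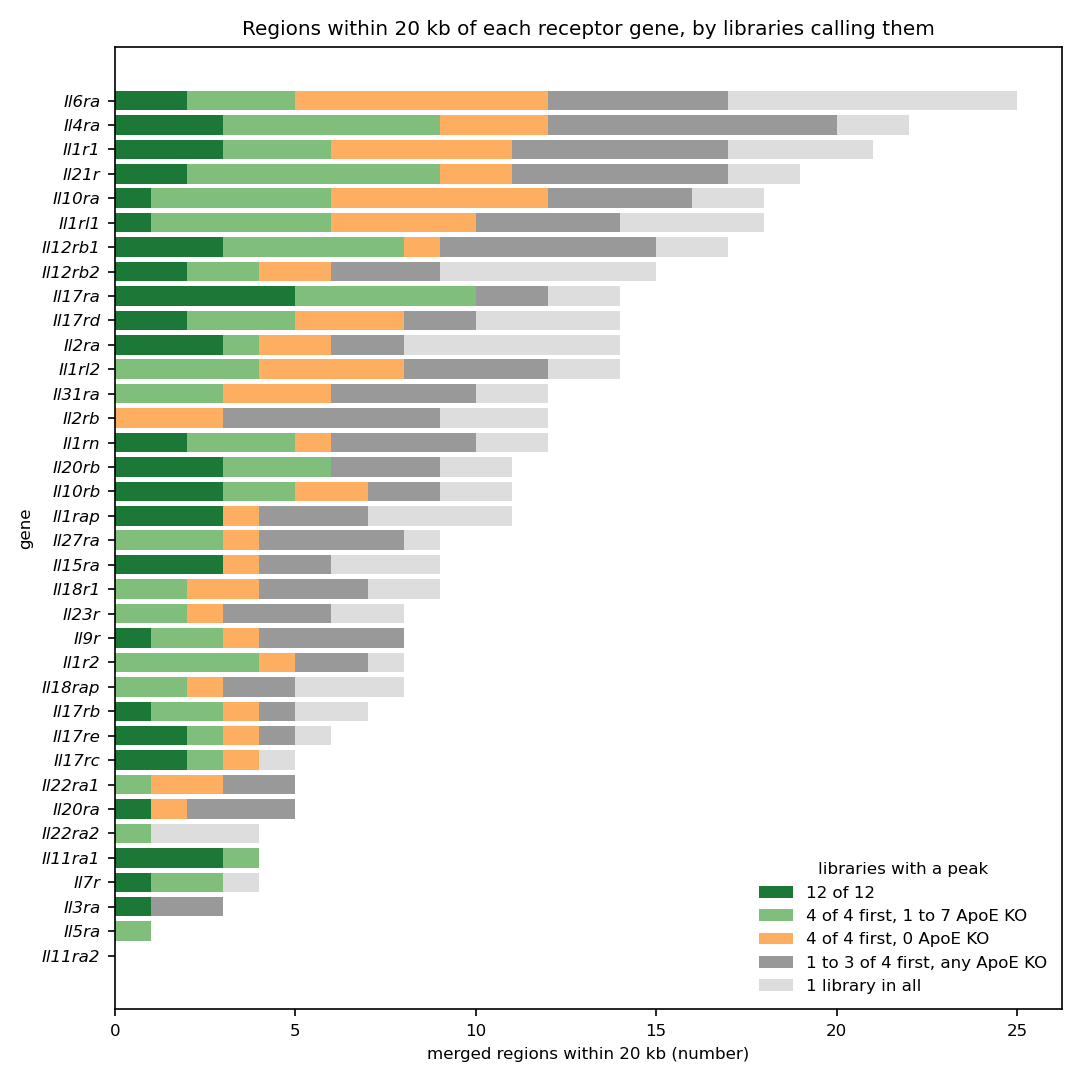
Number of merged regions within 20 kb of each of the 36 genes (bar length), split by how many first-cohort and ApoE KO libraries had a peak in them. Il6ra has 25 regions with 2 called in 12 of 12 libraries, Il17ra has 14 with 5, and Il11ra2 has none.

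No member region was called in at least 5 of 6 libraries of one genotype and at most 1 of 6 of the other, and none separated the treatments in that way. Among all regions 0.038% did so towards KO, 0.00138% towards WT, 0.0401% towards untreated and 0% towards oxLDL. Within the ApoE KO cohort, 1 of the 139 member regions called there was in 4 of 4 KO and 0 of 4 WT libraries, against 0.489% of the 56646 regions called in that cohort. In the opposite direction there were 0 member regions and 0.00706% of all. By treatment, 1 member region was in 4 of 4 untreated and 0 of 4 oxLDL libraries, against 0.413% of all, and 0 in the opposite direction, against 0.00177%. Both counts are near the background, and the direction of the background is that of the longer lists.

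The region that separated the genotypes lies inside Il6ra (chr3:89905121-89905902), 7684 bp from the start at the gene's upper end. Whether it is exonic or intronic was not analysed here. Within the ApoE KO cohort its percentile was 39.4 and 35.8 in KO untreated and 43.5 and 66.4 in KO oxLDL libraries, with fold enrichments in the deposited lists of 3.65, 3.05, 3.45 and 4.2, and it was at 0 in all 4 WT libraries. In the first cohort it was called in all 4 libraries, at 77.3 and 80.5 in WT and 82.8 and 85.7 in KO. With lists of equal length the first-cohort values were 69.9 and 80.5 in WT and 70.5 and 83.4 in KO, and the call remained in 3 of 4 ApoE KO cohort KO libraries and 0 of 4 WT libraries. KO untreated replicate 1, the longest list of that cohort, lost it. The region that separated the treatments lies by Il12rb1 (chr8:70806394-70807070), 1628 bp from the gene's lower end. It was at 12.2 and 57.3 in WT untreated and 47.4 and 8.07 in KO untreated libraries and at 0 in all 4 with oxLDL, and at 82.8 to 87.0 in the first cohort, treated or not. With lists of equal length it remained in 2 of 4 untreated libraries. Both regions were chosen for these calls, so no test is given.

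**Figure D5:**
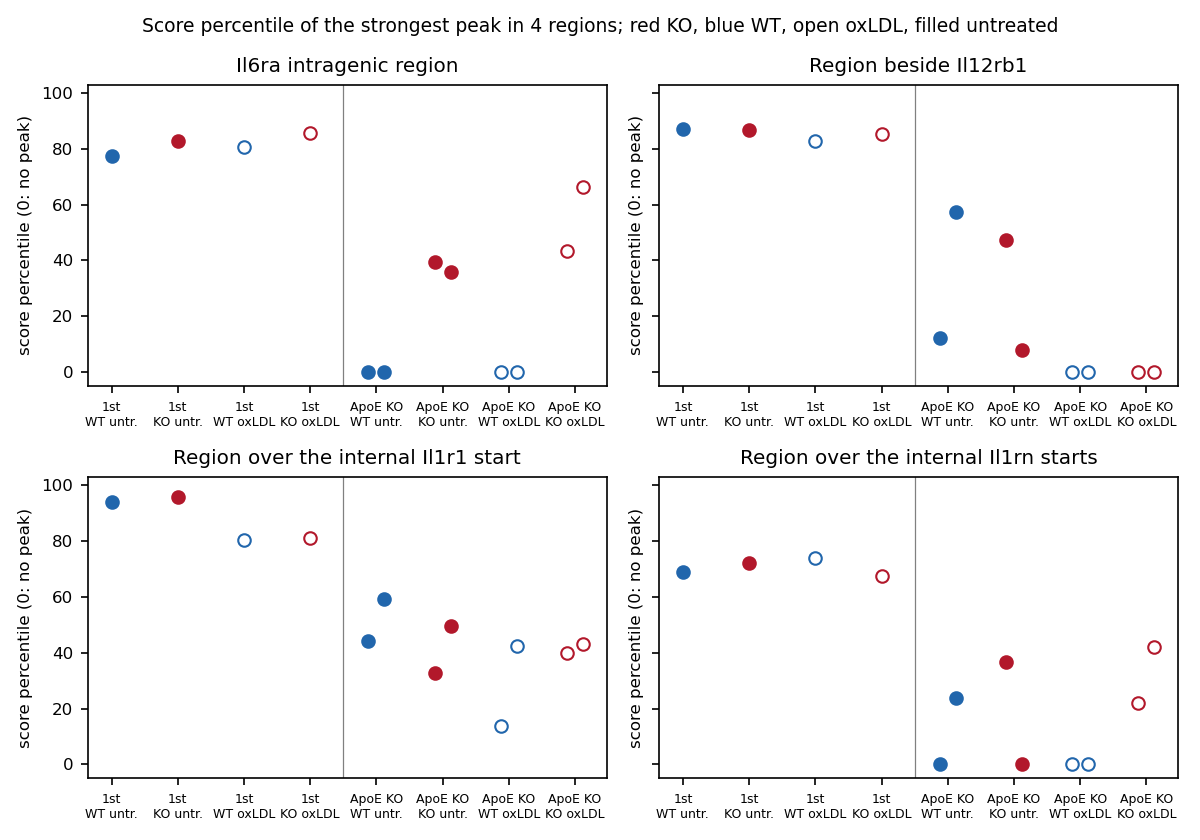
Score percentile in the full list (vertical axis, 0 where no peak was called) of 4 regions in each library, by cohort, genotype (red KO, blue WT) and treatment (open oxLDL, filled untreated). The Il6ra region is above 0 in the ApoE KO cohort in the 4 KO libraries alone, the Il12rb1 region in the 4 untreated libraries alone, and all 4 regions are above 60 in every first-cohort library.

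The partners of these receptors were measured in the same way, beside 39.4% of all genes with a boundary peak in 12 of 12 libraries and 31.8% in 0. Of 14 shared chains outside the member rule, 6 (Il6st, Csf2rb, Ifnar1, Ifnar2, Ifngr1 and Ifngr2) had a boundary peak in 12 of 12 libraries and 3 (Lifr, Csf3r and Crlf2) in 0. Of 17 JAK, STAT and SOCS genes, 12 had one in 12 of 12 and 1, Stat4, in 0. Of 10 genes of IL-1 and IL-17 signalling, 8 had one in 12 of 12 and none was at 0. Of 33 interleukin ligand genes, 5 (Il6, Il7, Il12b, Il15 and Il18) had one in 12 of 12 and 15 in 0, among them the T cell cytokines Il2, Il4, Il17a and Il21. The share of gene-library pairs with a boundary peak in the ApoE KO cohort was 48.1% over all genes and 43.8% for the receptors, while the ligands had 22.7%, the shared chains 57.1%, the JAK, STAT and SOCS genes 77.2% and the IL-1 and IL-17 signalling genes 93.8%. No gene of these lists was called by limma for peaks within 20 kb, by genotype, oxLDL or interaction, or at the boundary by genotype or oxLDL. For peaks within 20 kb, 7 of 65 tested genes had an unadjusted limma p under 0.05 by genotype, against 6.9% of all tested genes. By oxLDL there was 1 of 65, against 5.41%. At the boundary there were 6 of 49 by genotype, against 11.9%, and 4 of 49 by oxLDL, against 4.8%. The smallest p for genotype was that of Stat6, the STAT factor downstream of Il4ra (-0.25 ± 0.06, adjusted p = 0.609), and for oxLDL that of Csf2rb, the common beta chain (0.56 ± 0.13, adjusted p = 0.676). Next by genotype, Socs7 was at -1.49 ± 0.41 and Socs3, a feedback inhibitor of JAK signalling, at -0.51 ± 0.17. Among the ligands Il11 was at -0.44 ± 0.17.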

How the data were processed

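Each library has its own deposited peak list. The caller score of each peak and, in the ApoE KO cohort, its fold enrichment (a ratio) are as the authors deposited them. The submitters' processing notes name mm10, Bowtie2 2.3.4.1, SAMtools 1.2, Picard, bedtools 2.28.0, cutadapt, Trim Galore and FastQC, with MACS3 for the first and MACS2 for the ApoE KO cohort. Their roles and settings are not stated there. No list holds reads, so depth is unknown, and full lists of different length may differ in how weak a peak they hold.

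Peaks of the ApoE KO lists were placed at the summit position given there, and those of the first-cohort lists at their centre. They were assigned to RefSeq GRCm38.p6 genes on 19 autosomes, within 1 kb of either end or within 20 kb. Score percentiles are mid-ranks in the list. Boundary calls, start windows and regions (merged at 1 bp of overlap) used full lists. The limma 3.58.1 fits in R 4.3.3 used lists of equal length, log2(peaks + 0.5) or the boundary percentile (0 where none), genotype-by-treatment groups with cohort, a filter on genes (mean of 1 peak or more within 20 kb, or a boundary peak in any library), and Benjamini-Hochberg adjustment over all tested genes. The fit was tested on simulated data with large changes set in genes with many peaks or middle percentiles. That test does not show how small a change at these members the fit could find. Alternatives were full lists, a score of at least 50, other windows, pseudocount and filter, any overlap, the ApoE KO cohort alone, leaving out the 3 libraries with an L001 tag (WT untreated replicates 1 and 2 and KO oxLDL replicate 1 of the ApoE KO cohort) or each library, and a replicate block. Replicate numbers come from the titles. Counting peaks over start windows was chosen after the lists had been examined.

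Named genes were, per limma contrast, the 3 members with the smallest p in each direction, the members open in all or no libraries or in the first cohort alone, those with a separating region, and up to 3 genes per partner list. The members and lists were chosen with earlier results of these data known. Python 3.11.15, numpy 2.4.6, pandas 2.3.3 and matplotlib 3.10.9 did the rest.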

Additional observations from a re-analysis of the deposited data

Results flagged for a closer look

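At the Il1rap boundary in the ApoE KO cohort, KO and WT were in opposite order in the 2 treatments without overlap (lists of equal length): untreated WT 87.7 and 75.8 against KO 92.1 and 91.4, with oxLDL WT 93.0 and 94.2 against KO 88.8 and 90.0, so that the KO minus WT difference was lower by 14.2 points with oxLDL (-14.2). In the first cohort KO was below WT in both treatments (92.4 against 96.6 untreated, 95.1 against 95.9 with oxLDL), and the interaction over both cohorts was -8.35 ± 5.29 points (SE, adjusted p = 0.995, limma). For this interaction 0 of 25 members and 3.48% of all tested genes had an unadjusted limma p under 0.05. Il1rap was chosen for this reversal, which rests on 2 libraries per group. The share of all genes with such a reversal is not given here.

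The first-cohort lists also cover chromosome X, which the comparisons above leave out. There each group has 1 library, and the ApoE KO lists hold autosomes alone. Il2rg, the common gamma chain itself, had a boundary peak in 4 of 4 of these libraries, at percentiles of 53.7, 76.0, 47.3 and 45.5 in WT untreated, KO untreated, WT oxLDL and KO oxLDL. Il13ra1, which pairs with Il4ra, had one in 4 of 4, at 32.4, 41.1, 23.2 and 27.6. In both genes KO untreated, the longest list, was the highest.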

How the results depend on the processing

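The limma counts of called members were 0 in the equal-length fits and under every alternative run, except without the 3 libraries with an L001 tag (WT untreated replicates 1 and 2 and KO oxLDL replicate 1 of the ApoE KO cohort), where Il17rb was the 1 member called by peaks within 20 kb for genotype, for oxLDL and for the interaction. In that fit 216 of the 238 genes called for genotype had no residual spread at all, since small counts tie, and Il17rb had 1 peak in every ApoE KO library. In the ApoE KO cohort alone 459 of 500 genes called for genotype were of that kind and 0 members were called. Leaving out each library in turn gave 0 called members each time. With the replicate block the counts were also 0, and the deviations of same-numbered replicates correlated at -0.0617 to 0.015. Since small counts tie, such correlations cannot decide whether replicates of the same number were paired. The median difference of all genes (log2) was 0.18 for genotype and -0.24 for oxLDL in full lists, against -0.03 and 0 in lists of equal length. Of 628 values of named members recomputed, 12 changed sign, among them 4 of 30 in full lists and 4 of 18 within 50 kb. A score of at least 50 turned 2 of 30. The ApoE KO cohort alone turned 1 of 30 and a boundary within 2 kb 1 of 12. Leaving out each library turned 0 of 30 each time. The 11 members open in all libraries became 8 to 12 under the alternatives. The 7 open in none became 11 with lists of equal length, 11 within 500 bp and 3 within 2 kb, and 7 to 11 leaving out each library, 11 without the first-cohort KO untreated library. Regions separating the genotypes numbered 0 to 3 leaving out each library, with 3 (1 at Il6ra, 2 at Il4ra) without either first-cohort WT library. Those separating the treatments numbered 0 to 4, with 4 (2 at Il21r, 2 at Il12rb1) without either first-cohort oxLDL library. Within the ApoE KO cohort the genotype count of 1 became 0 with lists of equal length and 1 to 3 leaving out each library, 3 without WT untreated replicate 2 and 2 without KO untreated or KO oxLDL replicate 2. The treatment count of 1 became 0 with lists of equal length, 2 with a score of at least 50 (at Il23r and Il10ra), 2 within 50 kb and 1 to 3 leaving out each library, 3 without WT untreated replicate 1 and 2 without KO untreated replicate 2 or WT oxLDL replicate 1. The share of all regions that separate under each changed setting is not given here. These counts of regions therefore cannot be set beside a background. Depth is unknown, and 1 or 2 libraries per group limit every comparison.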

Other observations

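The first-cohort lists held no boundary peak in any of 4 libraries for the X-linked Il13ra2, the decoy receptor for interleukin-13, or for Il1rapl1 and Il1rapl2, members of the interleukin-1 receptor family best known from neurons. The 7 regions near members that were called in the ApoE KO cohort but not in the first cohort were each called in 1 library.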
